A study of Sus scrofa with 6 samples.

Results

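The genes described here are those that make, move and spend lactate and pyruvate in muscle. They are the lactate dehydrogenase subunits LDHA and LDHB, the lactate transporters SLC16A1 (MCT1) and SLC16A3 (MCT4), their chaperone BSG (basigin), and MPC1 and MPC2, which form the mitochondrial pyruvate carrier. These 7 genes were listed by symbol, with earlier results of these data known. In the files they correspond to 8 gene identifiers, since LDHB has a second, single-exon copy, and to 25 transcripts, of 20288 protein-coding genes and 72511 transcripts in all.

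Lactate dehydrogenase works as a tetramer of LDHA and LDHB subunits. Tetramers rich in LDHA are typical of fast, glycolytic fibres and favour the reduction of pyruvate to lactate, while tetramers rich in LDHB are typical of slow, oxidative fibres and the heart and favour the reverse reaction. MCT4 is the transporter by which glycolytic fibres release lactate, MCT1 is the higher-affinity transporter of oxidative fibres, and both need basigin to reach the membrane. MPC1 and MPC2 pair to carry pyruvate into the mitochondrion, the step that competes with lactate dehydrogenase for the same substrate.

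Longissimus thoracis (LT, a back muscle) and semitendinosus (ST, a hind-leg muscle) were taken from 3 Min pigs, a Chinese indigenous breed, at 210 days of age. All animals were of WT genotype, no treatment is named, and the muscle is the only factor that separates the groups. There were 3 libraries per muscle. The labels do not name the pig, so LT and ST of the same number were taken to be from the same pig. Whole muscle RNA was sequenced after removal of rRNA with directional libraries, and the values are FPKM, that is, fragments scaled to transcript length and to the mapped total of each library. In whole muscle, fewer cells of a type and less RNA per cell cannot be told apart.

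Genes were compared on log2(FPKM + 0.1) with limma, and a gene was called where its Benjamini-Hochberg adjusted p was under 0.05 and its log2 fold change exceeded 1 in size. Fold changes are ST against LT, so that a positive value is higher in ST. By this call 100 of 13994 genes differed (0.715%). The same fit with the pig as a block called 5.05% of the genes.

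The libraries did not fall cleanly into 2 muscles. On the mean log2 level of 10 fast fibre markers (fast myosin heavy chains, fast troponins and the like), LT lay at 11.17, 11.21 and 10.31 in pigs 1, 2 and 3, and ST at 8.03, 10.69 and 6.29. The 10 slow fibre markers lay at 7.84, 7.40 and 7.78 in LT, against 10.36, 8.24 and 10.43 in ST. On both lists the ST library of pig 2 was thus close to LT, and results are also given without it. Without that library 785 of 13897 genes were called (5.65%). Markers shared by all skeletal muscle were abundant in every library, with summed levels of 4 matched genes from 6986 to 7738 FPKM in LT and from 7423 to 9966 FPKM in ST. Of the heart markers, NPPB was listed at 0 throughout, and TNNI3 was at 0.278 to 0.673 FPKM in LT and 0.459 to 3.18 FPKM in ST (log2 fold change 1.42, adjusted p 0.245). Mitochondrial transcripts made up 5.36% to 8.16% of the summed FPKM in LT and 12.1% to 15.4% in ST. Quantile normalization moved the median log2 fold change of all genes from 0.17 to -0.01, and no member changed sign with it.

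None of the 8 identifiers was called by limma. Unadjusted p was under 0.05 for 5 of them, 4 higher and 1 lower in ST, against 20.7% of all genes tested. The LT and ST values of 5 identifiers did not overlap, against 26.6% of all genes. With the pig as a block, 3 were called (LDHA, LDHB and SLC16A1), against 5.05% of all genes in that fit. The same 3 were called without the ST library of pig 2, against 5.65% of all genes. That library was left out after it was seen to lie near LT on the fibre markers. Values without it, here and below, are therefore no separate support for a difference. The median log2 fold change of the 8 was 0.78, beside 0.17 for all genes.

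**Figure D1:**
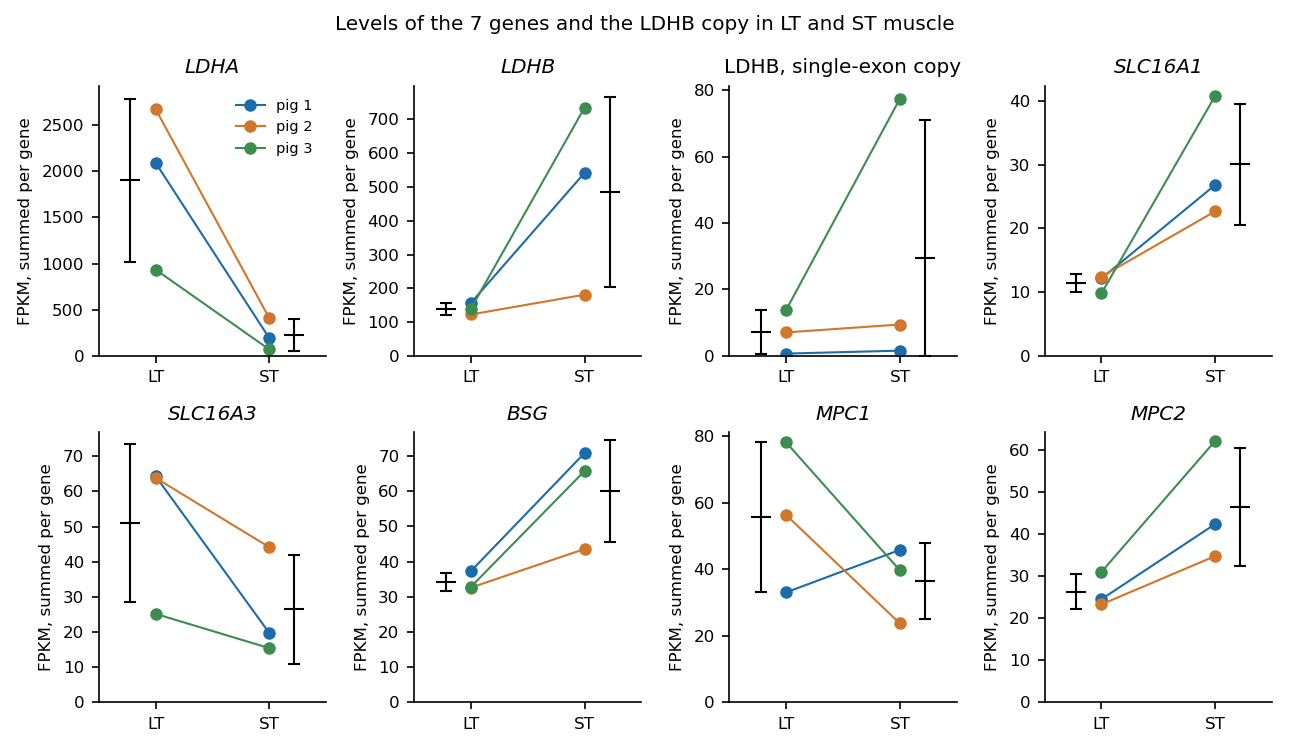
FPKM summed per gene (linear axes from 0) in LT and ST, with a line for each pig and the mean ± SD of 3 libraries as black bars beside the points. LDHA was lower and LDHB, SLC16A1, BSG and MPC2 were higher in ST in all 3 pigs without overlap, while SLC16A3, MPC1 and the single-exon LDHB copy overlapped between muscles.

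LDHA, the subunit of lactate-forming tetramers, was the most abundant member in LT. The gene (ENSSSCG00000013366) lies on the minus strand of chromosome 2, from 40812453 to 40826715 in Sscrofa11.1. In pigs 1, 2 and 3 it stood at 2092, 2672 and 935 FPKM in LT, against 194, 411 and 70.7 FPKM in ST. Every ST library was below every LT library, and the ST library of pig 2 was the highest of its group. The mean was 1900 ± 885 FPKM in LT and 225 ± 172 FPKM in ST (SD, n = 3), or 8.44-fold lower in ST. Of the LT level, 1874, 2448 and 833 FPKM came from 1 transcript that was listed at 0 in ST of pigs 1 and 3. The size of the difference thus rests largely on that transcript, described below. The log2 fold change was -3.28 (SE 0.66, 95% interval -4.81 to -1.76), with a limma adjusted p of 0.0644, 0.0105 with the pig as a block. Without the ST library of pig 2 it was -3.89, with an adjusted p of 0.0157.

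The study measured LDHA by qPCR, which was not analysed here. Its primers are shown as the sequence of this gene that the study targeted, written 5′ to 3′ in lower case with no part marked. Their positions on the transcripts were not determined.
LDHA forward primer: ttgttggggttggtgctgttg
LDHA reverse primer: agacggctttctccctcttgct

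LDHB, the subunit of lactate-oxidising tetramers, had the opposite order. The spliced gene with 8 exons (ENSSSCG00000000576) lies on the plus strand of chromosome 5, from 51810943 to 51831217. It was at 157, 123 and 139 FPKM in LT and at 542, 181 and 734 FPKM in ST. All ST libraries were above all LT libraries, and pig 2 again had the smallest difference. The mean was 140 ± 17 FPKM in LT and 486 ± 281 FPKM in ST (SD, n = 3), with a log2 fold change of 1.58 (SE 0.48). The limma adjusted p was 0.125, and 0.047 with the pig as a block. Without the ST library of pig 2 the log2 fold change was 2.18 and the adjusted p 0.00525.

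The symbol LDHB is also given to a single-exon gene (ENSSSCG00000032557) on the minus strand of chromosome 2, from 12988708 to 12990067. It held 0.694, 7.08 and 13.8 FPKM in LT and 1.59, 9.46 and 77.4 FPKM in ST. The groups overlapped, with large differences between pigs, and ST was the higher in each of the 3 pigs. Its log2 fold change was 1.33 (SE 1.46), with a limma adjusted p of 0.647, and 0.0788 with the pig as a block. As a share of both LDHB genes, the copy made up 0.441% in LT and 0.293% in ST of pig 1, 5.46% and 4.96% in pig 2, and 9.03% and 9.53% in pig 3. Reads of near-identical sequence could have been split between the spliced gene and its copy, so the level of the copy is uncertain.

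Since the 2 subunits differed in opposite directions, their ratio necessarily differed more in size between muscles than either subunit alone. LDHA to LDHB stood at 13.4, 21.8 and 6.70 in LT, and at 0.358, 2.27 and 0.0962 in ST. LDHA exceeded LDHB in all LT libraries and in the ST library of pig 2, and was below LDHB in ST of pigs 1 and 3. On the log2 scale the ratio was 4.87 lower in ST, which is 29.2-fold, with differences of -5.22, -3.27 and -6.12 within pigs 1, 2 and 3. The 2-sided exact permutation test gave p = 0.1, the smallest that 3 against 3 libraries allow, and 0.125 after adjustment over the 5 ratios compared. Summed with the single-exon copy, LDHB gave the same log2 difference of -4.87.

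Expressed as a share, LDHA made up 93.0%, 95.6% and 87.0% of the summed LDHA and LDHB level in LT, and 26.4%, 69.4% and 8.78% in ST. The summed level came to 2249, 2795 and 1074 FPKM in LT, against 736, 592 and 805 FPKM in ST. Total lactate dehydrogenase RNA was therefore lower in each ST library than in any LT library, with less spread among the ST libraries (SD 109 FPKM) than among the LT libraries (SD 879 FPKM). Over the 3 ST libraries LDHA and LDHB ran in opposite order.

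**Figure D2:**
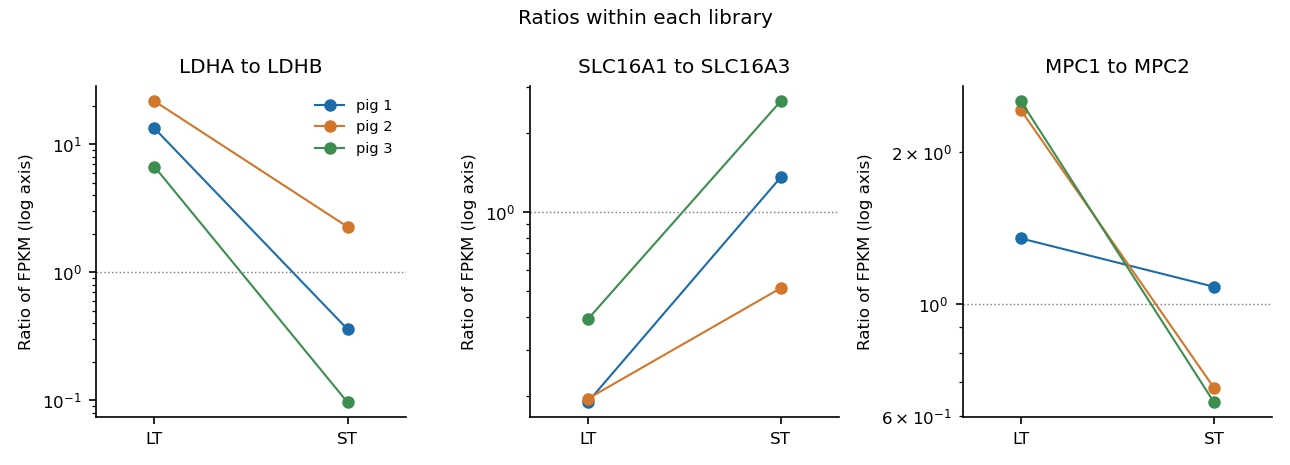
Ratios of FPKM within each library (log axes, dotted line at a ratio of 1), with a line for each pig. LDHA to LDHB and MPC1 to MPC2 were lower and SLC16A1 to SLC16A3 was higher in ST in all 3 pigs, and the ST library of pig 2 had the highest LDHA to LDHB ratio of its group, 2.27.

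The listed FPKM of LDHA was divided differently among its transcripts in LT and ST, though no single transcript was called. In LT, the transcript ENSSSCT00000062740 (8 exons, 1846 bases) made up 89.6%, 91.6% and 89.1% of the gene's FPKM. In ST it was listed at 0 in pigs 1 and 3 and made up 32.9% in pig 2. Its level was 1874, 2448 and 833 FPKM in LT, and 135 FPKM in the 1 ST library where it was not at 0. A value of exactly 0 for the leading transcript of an abundant gene can be a failed estimate, so these zeros, and the shares computed from them, are given as listed. The LDHA sum, its ratio to LDHB and the summed level of both subunits, given above, include the same zeros.

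In ST the longest LDHA transcript held the largest share of the gene. ENSSSCT00000040830 (9 exons, 2893 bases), whose 3′ end reaches further than that of the other LDHA transcripts, was at 46.7, 17.3 and 16.0 FPKM in LT and at 160, 207 and 57.1 FPKM in ST. It was thus higher in all 3 ST libraries although the gene as a whole was lower there. It held 2.23%, 0.647% and 1.71% of the gene in LT, against 82.2%, 50.4% and 80.9% in ST. Its log2 fold change was 2.39 (SE 0.61), with a limma adjusted p of 0.319.

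ENSSSCT00000046190 (9 exons, 2202 bases) kept the direction of the gene. It was at 171, 154 and 85.9 FPKM in LT and at 34.6, 68.5 and 13.5 FPKM in ST, with a log2 fold change of -2.04 (SE 0.60) and an adjusted p of 0.387. Its share was nevertheless higher in ST, at 17.8%, 16.7% and 19.1% against 8.17%, 5.78% and 9.19%. ENSSSCT00000053481 was listed above 0 in LT of pig 2 alone, at 52.3 FPKM, and ENSSSCT00000014597 was at 0 in all libraries.

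The shares of the 3 leading LDHA transcripts did not overlap between muscles. The mean difference, ST minus LT, was -79.1 percentage points for ENSSSCT00000062740, 69.6 for ENSSSCT00000040830 and 10.2 for ENSSSCT00000046190. Each gave p = 0.1 in the 2-sided exact permutation test, the smallest possible, and 0.133 after adjustment. StringTie splits the fragments of overlapping transcripts by an estimate, and the number of fragments that separate these transcripts was not analysed here.

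**Figure D3:**
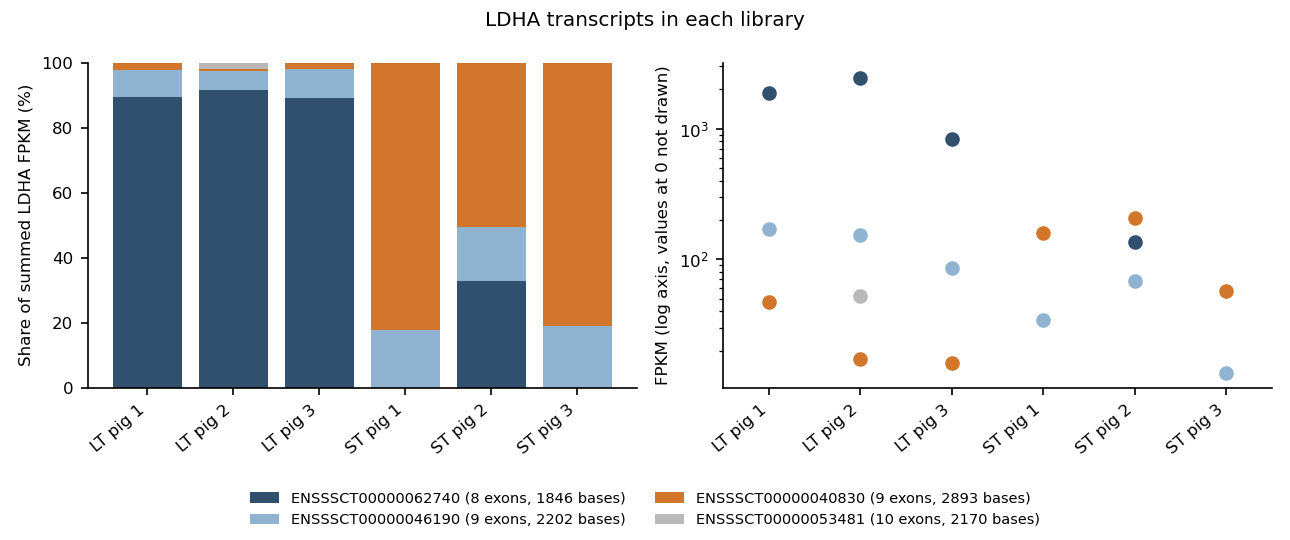
Left, share of the summed LDHA FPKM held by each transcript in each library, as stacked bars that reach 100%. Right, FPKM of the same transcripts on a log axis, with values at 0 not drawn. ENSSSCT00000062740 held 89.1% to 91.6% in LT, and ENSSSCT00000040830 held 50.4% to 82.2% in ST.

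Over the member genes 18 of the 25 transcripts passed the filter, 7 did not, and 4 were at 0 in all libraries. Limma called none of the 18, against 0.146% of the 52102 transcripts tested, and 4 higher and 3 lower in ST had an unadjusted p under 0.05, against 9.69% of all transcripts. With the pig as a block none was called either, but that fit called only 2 of all 52102 transcripts. Without the ST library of pig 2 limma called 2 of them, the 8-exon LDHA transcript and the spliced LDHB transcript ENSSSCT00000000620, which carried all of that gene's FPKM, against 0.507% of all transcripts in the same fit. In that fit both ST values of the 8-exon LDHA transcript are listed zeros, so its call rests on them.

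SLC16A1 had higher values in ST than in LT in all libraries. MCT1 moves lactate into oxidative fibres, and its gene (ENSSSCG00000006771) lies on the plus strand of chromosome 4, from 107494463 to 107641703. It was at 12.2, 12.4 and 9.83 FPKM in LT and at 26.8, 22.7 and 40.8 FPKM in ST. The lowest ST value was above the highest LT value, also in pig 2. The mean was 11.5 ± 1.43 FPKM in LT and 30.1 ± 9.49 FPKM in ST (SD, n = 3), or 2.62-fold higher in ST. The log2 fold change was 1.35 (SE 0.24), with a limma adjusted p of 0.0539, and 0.0334 with the pig as a block. Without the ST library of pig 2 it was 1.53, with an adjusted p of 0.0178. One transcript, ENSSSCT00000052631, held 99.5% to 100% of the gene in each library.

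SLC16A3, the MCT4 gene of lactate-releasing fibres, had lower values in ST of all 3 pigs but the muscles overlapped. The gene (ENSSSCG00000024018, chromosome 12, 796884 to 803554, minus strand) has 1 transcript in the files, ENSSSCT00000031428. It stood at 64.4, 63.9 and 25.2 FPKM in LT, against 19.8, 44.2 and 15.4 FPKM in ST. LT of pig 3 lay below ST of pig 2. The log2 fold change was -0.98 (SE 0.48), with a limma adjusted p of 0.295, and 0.0637 with the pig as a block.

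The ratio of the transporters was higher in ST. SLC16A1 to SLC16A3 stood at 0.189, 0.195 and 0.391 in LT, against 1.36, 0.514 and 2.64 in ST, without overlap. SLC16A1 exceeded SLC16A3 in ST of pigs 1 and 3 alone. The log2 difference was 2.33, which is 5.04-fold (exact permutation p = 0.1, 0.125 after adjustment), and 2.84, 1.40 and 2.76 within pigs 1, 2 and 3.

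BSG, the chaperone of both transporters, was higher in ST with SLC16A1. The gene (ENSSSCG00000027907, chromosome 2, 77735584 to 77743403, minus strand) was at 37.2, 32.6 and 32.8 FPKM in LT and at 70.8, 43.6 and 65.7 FPKM in ST. The muscles did not overlap, and ST of pig 2 was again the nearest to LT. The log2 fold change was 0.78 (SE 0.22), with a limma adjusted p of 0.105, and 0.0491 with the pig as a block, below the fold that a call needs.

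The transcripts behind the BSG sum varied between single libraries. ENSSSCT00000087008 held 50.0% to 62.3% of the gene in 5 libraries and 0.818% in ST of pig 2. In that library ENSSSCT00000038520 held 98.6%, at 42.9 FPKM, while it was listed at 0 in 3 of the other libraries.

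Summed FPKM was higher in all ST libraries than in LT for MPC2 and not for MPC1, whose proteins work as a pair. MPC2 (ENSSSCG00000006304, chromosome 4, 83069748 to 83096990, plus strand) was at 24.6, 23.3 and 31.1 FPKM in LT and at 42.4, 34.8 and 62.2 FPKM in ST, without overlap. The log2 fold change was 0.79 (SE 0.24), with a limma adjusted p of 0.129, and 0.0387 with the pig as a block, below the fold that a call needs. Its leading transcript, ENSSSCT00000067928, held 94.7% to 97.9% of the gene.

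MPC1 (ENSSSCG00000032916, chromosome 1, 2541383 to 2552863, plus strand) was at 33.1, 56.3 and 78.2 FPKM in LT and at 45.9, 23.7 and 39.7 FPKM in ST. ST was higher in pig 1 and lower in pigs 2 and 3, and the muscles overlapped. The log2 fold change was -0.58 (SE 0.36), with a limma adjusted p of 0.399, and 0.301 with the pig as a block.

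The MPC1 to MPC2 ratio, compared after the values had been seen, stood at 1.35, 2.41 and 2.52 in LT, against 1.08, 0.682 and 0.638 in ST. It was lower in ST of all 3 pigs without overlap, by 1.37 on the log2 scale (exact permutation p = 0.1, 0.125 after adjustment). Within MPC1 the short transcript ENSSSCT00000075149 (1042 bases) made up 38.8%, 75.7% and 93.7% of the gene in LT and 28.2%, 21.2% and 29.5% in ST. The long transcript ENSSSCT00000083136 (7137 bases) held 61.2%, 22.7% and 6.22% in LT and 71.8%, 78.8% and 70.5% in ST. Unlike the gene sum, the long transcript was higher in ST of all 3 pigs, with overlap between muscles. It was at 20.3, 12.8 and 4.87 FPKM in LT and at 32.9, 18.7 and 28.0 FPKM in ST. Its log2 fold change was 1.25, with a limma adjusted p of 0.520. As a share of fragments, which weights FPKM by length, the short transcript held 8.46%, 32.6% and 68.7% in LT and 5.42%, 3.78% and 5.77% in ST, so that in LT of pig 2 the long transcript led. The summed MPC1 FPKM, and with it the ratio and its lack of overlap, depends on the split between transcripts of such unlike length. Whether the ratio differs when weighted by length was not tested. Over the 3 LT libraries the MPC1 level and the share of its short transcript had the same order. Unannotated mRNA transcripts on the opposite strand amounted to 8.92% to 32.9% of the MPC1 level, against at most 11.8% for the other 6 named genes.

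FPKM is scaled by length, so levels can be set side by side between genes. In LT the order of mean FPKM was LDHA, LDHB, MPC1, SLC16A3, BSG, MPC2, SLC16A1 and the LDHB copy. LDHA, LDHB and the rest were set apart without overlap, as were BSG, MPC2 and SLC16A1 from each other. MPC1, SLC16A3 and BSG overlapped as neighbours, and so did SLC16A1 and the LDHB copy. In ST the order was LDHB, LDHA, BSG, MPC2, MPC1, SLC16A1, the LDHB copy and SLC16A3, and all neighbours overlapped over the 3 libraries. SLC16A1 was thus next to last of the 8 in LT, and SLC16A3 last in ST.

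LDHA and LDHB were also set against the fibre markers of the same library, chosen after seeing the data. Relative to the mean log2 level of the 10 fast markers, LDHA was at -0.14, 0.18 and -0.44 in LT and at -0.42, -2.01 and -0.15 in ST. The ST values of pigs 1 and 3 lay within the LT range, and ST of pig 2, with fast markers near those of LT, was the lowest of the 6. The mean difference was -0.73, with overlap (2-sided exact permutation p = 0.4, 0.427 after adjustment over the 16 such differences).

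LDHB relative to the 10 slow markers was at -0.55, -0.46 and -0.65 in LT and at -1.28, -0.74 and -0.91 in ST. On this scale the difference was -0.42, against 1.58 for LDHB itself, and the muscles did not overlap (exact permutation p = 0.1, 0.267 after adjustment). LDHB was therefore higher in ST as FPKM and lower in ST per unit of slow marker. The slow markers were themselves higher in ST (median log2 fold change 2.05), so any gene that rose less than their mean is lower on this scale by arithmetic. Such a lower value was not particular to LDHB, since the mean of every other member identifier was also lower in ST on this scale. The differences were -0.66 for SLC16A1 and -1.22 for MPC2, both with overlap, and -1.23 for BSG.

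The marker lists themselves differed between the muscles. Of the fast list limma called none, with 8 of 10 lower at an unadjusted p under 0.05, and its summed level was 45283 to 60688 FPKM in LT and 3423 to 38820 FPKM in ST. Of the slow list 1 was called higher (MYBPC1), with 9 of 10 higher at an unadjusted p under 0.05, and its summed level was 5433 to 8035 FPKM in LT and 8570 to 44607 FPKM in ST. With the pig as a block 1 fast and 6 slow markers were called. Without the ST library of pig 2 all 10 of each list were called. That library was singled out by these same markers, so the latter count is no separate result. Of 4 endothelial markers, 2 were called higher (PECAM1 and CDH5) and all 4 had an unadjusted p under 0.05, with sums of 47.1 to 71.0 FPKM in LT and 113 to 164 FPKM in ST. The adipocyte, fibroblast, red cell, leukocyte and Schwann cell lists had no call, with an unadjusted p under 0.05 for 1 adipocyte gene, lower, and 2 leukocyte genes, higher. The part of these cell types in the levels of the members was not tested.

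**Figure D4:**
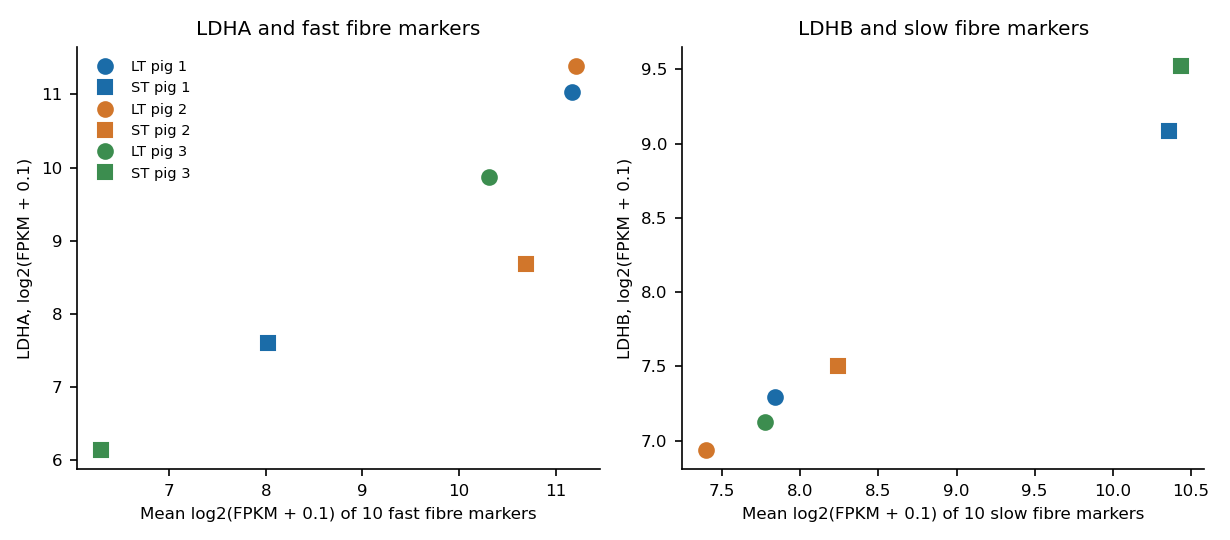
Level of LDHA against the mean of 10 fast fibre markers (left) and of LDHB against the mean of 10 slow fibre markers (right), both as log2(FPKM + 0.1), with a circle for each LT and a square for each ST library, coloured by pig. ST of pig 2 lies near the LT libraries on both marker axes, at 10.69 and 8.24.

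Genes with the profile most like that of LDHA were sought among 9598 genes with a mean above 1 FPKM, by the root mean square distance of log2 levels centred on each gene's mean over the 6 libraries. The nearest were EGF (distance 0.48), NTMT2 (0.53), OXTR (0.54), SHISA2 (0.55) and SOWAHB (0.56). EGF, a growth factor, was at 106, 100 and 68.5 FPKM in LT and at 16.8, 40.3 and 3.84 FPKM in ST. The LDHB profile had closer neighbours, namely VWA8 (0.13), MBOAT2 (0.13), ATP2A2 (0.16), FGF9 (0.17) and ACOT11 (0.18). ATP2A2, the calcium pump of slow fibres, was at 243, 168 and 252 FPKM in LT and at 728, 317 and 1107 FPKM in ST. Among the members, SLC16A3 ranked 115 from LDHA, and SLC16A1, BSG and MPC2 ranked 158, 403 and 447 from LDHB.

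Genes around the same substrates were read from 5 lists. Of 10 genes that pass the reducing power of cytosolic NADH to the mitochondrion, limma called 2 higher in ST and none lower, and at an unadjusted p under 0.05 there were 6 higher and 2 lower. The median log2 fold change of the list was 0.70. GOT1, the cytosolic aspartate aminotransferase of the malate-aspartate shuttle, rose from 35.2 ± 6.48 to 131 ± 22.8 FPKM (SD, n = 3; log2 fold change 1.89, SE 0.21, adjusted p 0.0171). MDH1, the cytosolic malate dehydrogenase that uses NADH in the cytosol as lactate dehydrogenase does, rose from 47.4 ± 4.14 to 165 ± 56 FPKM (log2 fold change 1.74, SE 0.25, adjusted p 0.0355). GOT2, the mitochondrial partner of GOT1, had a log2 fold change of 0.83 and an adjusted p of 0.0677. Of the glycerol phosphate shuttle genes, named after their values were seen, none was called. Their log2 fold changes were -1.10 for GPD1 (adjusted p 0.134), -1.83 for GPD2 (adjusted p 0.103) and 0.08 for GPD1L (adjusted p 0.849). With the pig as a block GPD1 was called lower (adjusted p 0.0459), and GPD2 was not (0.0642).

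Of 14 genes of pyruvate oxidation and carboxylation limma called none, with 6 higher and 2 lower in ST at an unadjusted p under 0.05 and a median log2 fold change of 0.49. PDHA1, the catalytic subunit of pyruvate dehydrogenase, had a log2 fold change of 1.12 and an adjusted p of 0.0509. Of the 4 kinases that switch this enzyme off, PDK2 was at 1.67 (adjusted p 0.0509) and PDK3 at -1.40 (adjusted p 0.0615) on the log2 fold change scale. The other kinases, named after their values were seen, were higher in ST of all 3 pigs but overlapped between muscles, with log2 fold changes of 2.38 for PDK4 (adjusted p 0.278) and 0.67 for PDK1 (adjusted p 0.282). PDK4 was at 22.6, 13.7 and 199 FPKM in LT and at 52.0, 407 and 413 FPKM in ST. With the pig as a block PDHA1 and PDK2 were called higher (adjusted p 0.0306 and 0.0138), and PDK3 and PC lower (adjusted p 0.0344 and 0.0411). PC, pyruvate carboxylase, was named after its values were seen, with a log2 fold change of -1.51.

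A further list held other lactate dehydrogenase and monocarboxylate transporter relatives, together with a transporter chaperone and a lactate receptor. Of these 7 were tested and none was called. At an unadjusted p under 0.05 there were 2 higher and 2 lower, and the median log2 fold change was -0.08. SLC16A7 (MCT2) was at 2.35 ± 0.255 FPKM in LT and 5.88 ± 2.89 FPKM in ST, with a log2 fold change of 1.14 and an adjusted p of 0.164, and 0.00964 without the ST library of pig 2. LDHD, which acts on D-lactate, had a log2 fold change of 0.34 and an adjusted p of 0.234, and UEVLD had -0.51 and 0.187. LDHC, the testis subunit and next to LDHA on chromosome 2, was at no more than 0.246 FPKM in any library.

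Of 7 tested genes of alanine and proton handling none was called, with 2 higher at an unadjusted p under 0.05 and a median log2 fold change of -0.09. CA4, a carbonic anhydrase at the cell surface, had a log2 fold change of 1.13 and an adjusted p of 0.179. It was called higher with the pig as a block (adjusted p 0.0335). GPT2, an alanine aminotransferase, was at 0.139 FPKM in LT and 0.0943 FPKM in ST.

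Of 10 transcriptional regulators known to act on these genes 2 were called higher in ST and none lower, 8 were higher at an unadjusted p under 0.05, and the median log2 fold change was 1.23. EPAS1 (HIF-2α) rose from 17.3 ± 0.727 to 37.6 ± 3.98 FPKM (log2 fold change 1.11, SE 0.16, adjusted p 0.0355). PPARA rose from 3.47 ± 0.456 to 9.13 ± 1.39 FPKM (log2 fold change 1.37, SE 0.20, adjusted p 0.0355). PPARGC1B, a coactivator of oxidative metabolism, had a log2 fold change of 0.95 and an adjusted p of 0.07. With the pig as a block 6 of the 10 were called higher. EPAS1 is also abundant in endothelium, whose markers were higher in ST as given above.

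**Figure D5:**
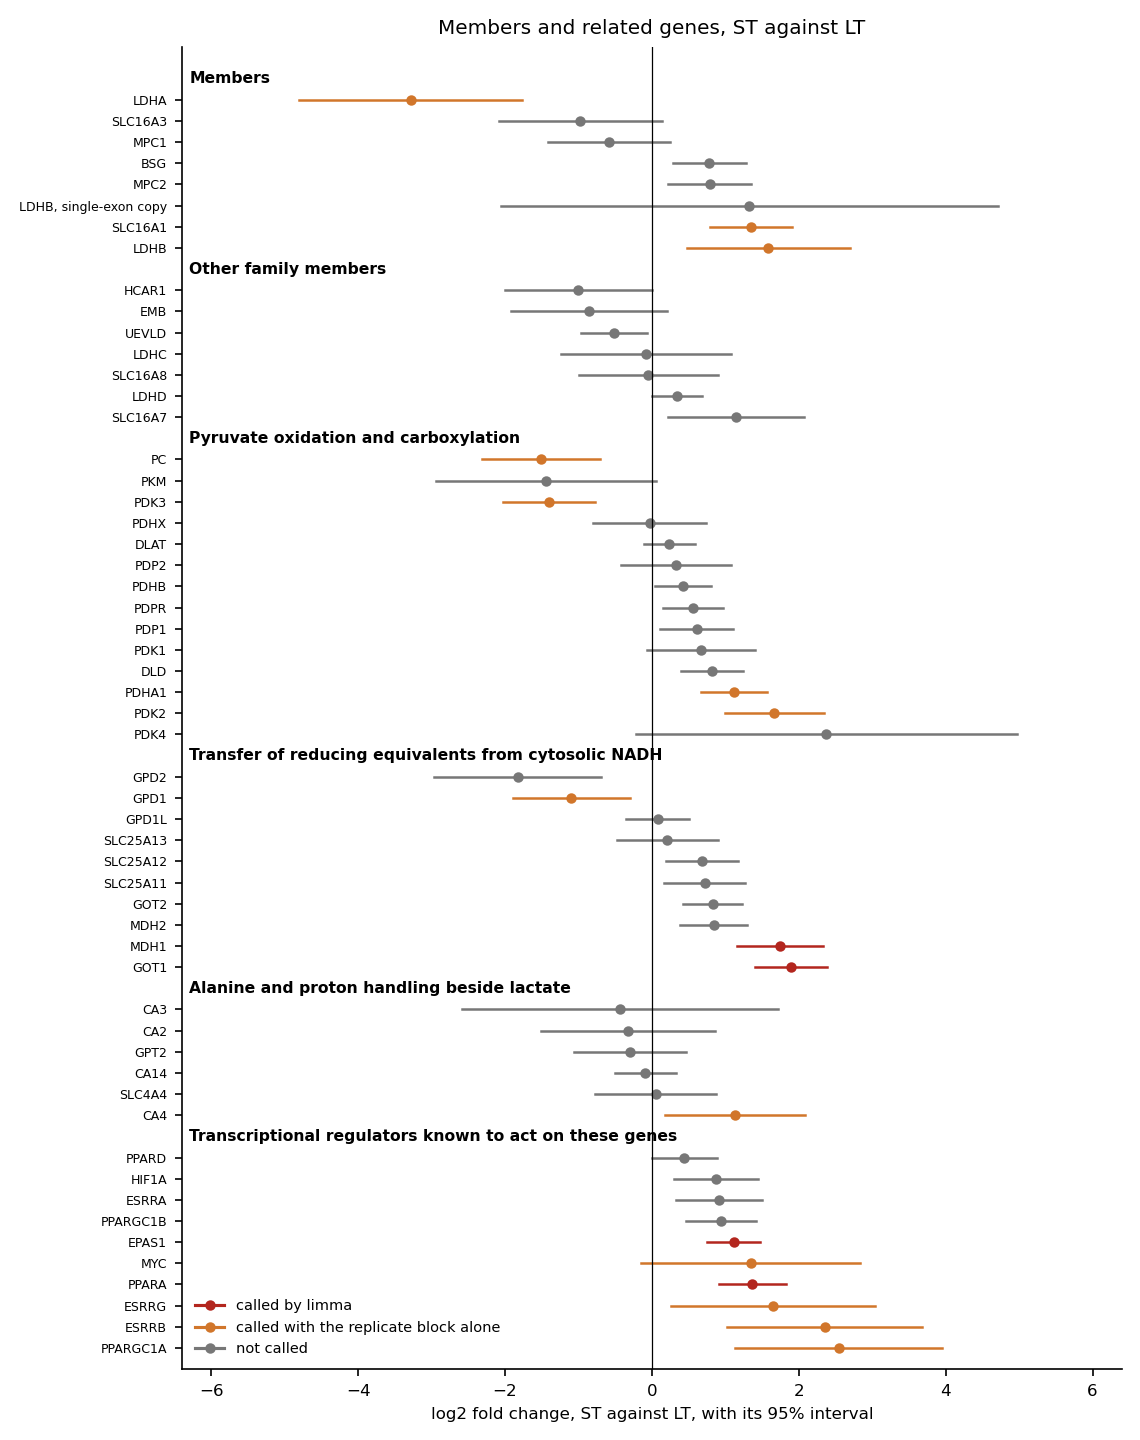
Log2 fold change, ST against LT, with its 95% interval from limma for the 8 member identifiers and tested genes of 5 related lists, with 1 gene not shown. LDHA has the lowest value among the members, -3.28, and the 4 genes in red (GOT1, MDH1, EPAS1 and PPARA) were called without a block.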

How the data were processed

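Values were deposited as FPKM for each transcript, which the authors obtained with SOAPnuke (read filter), HISAT2 (mapping to Sscrofa11.1) and StringTie (assembly). Transcript FPKM was summed per annotated protein-coding gene. Genes were named by an Ensembl symbol table (14657) or by RefSeq position with at least 80% cover (1075), which gave LDHB, SLC16A1, BSG and MPC1. Read counts were not used here, so the depth behind single values is unknown.

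Features that exceeded 0.1 FPKM in 1 or more libraries entered limma 3.58.1 (R 4.3.3), fitted with a variance trend to log2(FPKM + 0.1). On simulated data for 13994 genes, 80 of 100 changes of 2 and 100 of 100 changes of 4 on the log2 scale were recovered, with 12 false calls. The simulated libraries were independent, with no pairing by pig and no outlying library, so recovery in the real data can differ. The study states that LT and ST came from the same pigs. Residuals of same-numbered libraries correlated at 0.30 to 0.33, those of other pairs at -0.23 to -0.12. Single values were compared by exact permutation in Python 3.11.15.

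The members and lists were chosen with earlier results of these data known. Named were all members, all LDHA transcripts, the leading or called transcript of each other member, called genes and the 3 smallest p per related list, and the 5 profiles nearest to LDHA and to LDHB. A gene that this rule names is not reported here. TTN, MB, VWF, NPPA, MYL7, GPT and LDHAL6B were not matched, and MYH1, MYH2 and MYH4 share 1 identifier. Alternatives were other pseudocounts, filters and scalings, a pig block, no variance trend and leaving out each library.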

Additional observations from a re-analysis of the deposited data

How the results depend on the processing

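The number of member genes called was 0, and it was 1 as TPM and with a filter of FPKM above 1 (SLC16A1 in both), 2 rescaled to nuclear transcripts, 3 with the replicate block (LDHA, LDHB and SLC16A1, no other member), and 0 to 3 without single libraries. Of the member transcripts 0 to 2 were called without single libraries. Of the related genes 4 were called, 0 with no filter on FPKM, 1 with no variance trend, 15 with the replicate block, 7 rescaled to nuclear transcripts, and 0 to 17 without single libraries, the 17 without ST of pig 2. Over all genes 100 were called, 706 with the replicate block, 363 rescaled to nuclear transcripts, 50 with quantile normalization, 26 with no variance trend, 11 with no filter, and 11 to 785 without single libraries. Fewer genes were called with 1 library less, except without ST of pig 2, and the cause was not tested.

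Taken from the transcript with the highest mean alone, the log2 ratio of LDHA to LDHB differed by -12.05, a value that depends on the 0.1 added to listed zeros, and that of MPC1 to MPC2 by -2.71. Direction turned in 2 results, not counting the other members relative to the slow markers. The single-exon LDHB copy had a log2 fold change of -0.10 without ST of pig 3, the lowest value of a range up to 2.66 without single libraries, and LDHB one of -0.42 relative to the slow markers, an alternative chosen after seeing the data. As shares of fragments, ENSSSCT00000046190 differed by 5.86 percentage points. In the paired exact sign-flip permutation test on differences within pigs, each of the 3 ratios gave p = 0.25, the smallest that 3 pairs allow. No unannotated mRNA transcript overlapped a member on its own strand, so adding these gave no other value. Unannotated non-coding transcripts were not searched for overlap.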
